A study of Mus musculus x Rattus norvegicus with 2 samples.

Results

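The 4 surfactant protein genes Sftpa1, Sftpb, Sftpc and Sftpd were followed in single cells of mouse-rat chimeric lung. They were chosen by symbol in the mouse and rat gene sets, which gave 1 feature per gene and species, or 8 of 80802 features. The tissue was E20.5 lung carrying C57BL/6 mouse cells and SD rat cells, dissociated and run with the 10x 3' v3 chemistry, in which a unique molecular identifier (UMI) marks 1 captured RNA molecule. In the control library the lung was a mouse-rat chimera that had developed in a wild-type rat. The mutant library came from a lung of mouse cells in a rat without Nkx2-1, a transcription factor needed to build lung epithelium. The mouse cells carried no engineered allele that the labels name. The sources used here do not give the number of embryos per library. Each group had 1 library. Differences between the libraries therefore had no replicate check, no test was run, and every interval below is a 95% interval for counting error only.

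Surfactant is the lipid and protein film that lowers surface tension at the air side of the alveolus. It is made by alveolar type 2 (AT2) cells, which store it in lamellar bodies and secrete it around birth. Sftpb and Sftpc encode small hydrophobic proteins that insert into the lipid film, and Sftpa1 and Sftpd encode collectins, soluble lectins that bind sugars on microbes. In mature lung Sftpc is largely an AT2 gene, while Sftpb and the collectins are also made by secretory cells of the airways. Alveolar type 1 (AT1) cells are the flat cells of gas exchange and are not a main source of any of them. Nkx2-1 binds the promoters of surfactant genes in lung epithelium.

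An Epcam-positive barcode had at least 1 Epcam UMI of its own species, at least 3 of 8 epithelial markers, and more epithelial markers than markers of any other lineage. Epcam encodes an adhesion protein of epithelial cells. The rule found 960 mouse and 224 rat barcodes in the control library, and 1660 mouse and 0 rat barcodes in the mutant library. They were 12.95% and 30.9% of the kept mouse and rat barcodes of the control and 18.75% of the kept mouse barcodes of the mutant. The mutant library kept 79 rat barcodes, of which 73 had mostly mesenchymal markers. The gate itself used these markers, so their levels only describe it: all 8 epithelial markers reached 10 counts per 1000000 UMIs of the barcodes' species (CPM) in each of the 3 sets, and their summed level was 4346, 3320 and 3442 CPM in control mouse, mutant mouse and control rat. Endothelial markers summed to 75.4, 51.1 and 32.6 CPM in the same sets, and mesenchymal markers to 177, 143 and 41.0 CPM. The lineage gate mattered in the control library, where 538 of 1540 mouse barcodes with an Epcam UMI failed it, against 135 of 1950 in the mutant. Of those that failed, 332 and 75 had most markers from the mesenchyme. The libraries held 123047433 and 103627303 UMIs in all and shared 47 barcode sequences. Median depth of the Epcam-positive barcodes was close (13360 mouse UMIs in control, 13968 in mutant, 15291 rat UMIs in control), but the mean was 33295 UMIs in control mouse against 14946 in mutant mouse. Epcam itself averaged 31.9 UMIs per control mouse barcode and 4.61 per mutant mouse barcode.

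In mm10, Sftpb lies on chromosome 6 from 72304610 to 72314371 on the plus strand and has 7794 bp of intron. The other members lie on chromosome 14. Sftpa1 runs from 41131782 to 41136452 on the plus strand with 1811 bp of intron, and Sftpd from 41172214 to 41185149 on the minus strand with 10519 bp, so the collectin genes are 35761 bp apart. Sftpc runs from 70520949 to 70524081 on the minus strand with 2099 bp of intron. No annotated gene overlapped any of them. Values below set a gene against itself, since 3' UMI counts were not divided by gene length.

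Sftpc took a larger share of mouse Epcam-positive RNA in the mutant library, and it was divided differently among the barcodes. Summed over barcodes it stood at 31006 CPM in control (30945 to 31067) and at 69653 CPM in mutant (69550 to 69757), which was 2.25-fold higher, or 1.17 on the log2 scale after adding 10 CPM to both. The median barcode went the other way, with 12818 CPM in control and 1485 CPM in mutant. Control barcodes filled the middle of the range. In control 35.6% had 10000 to 50000 CPM and 1.77% had 100000 CPM or more, while in mutant 4.46% lay in the first range and 31.4% in the second. A further 41.0% of mutant barcodes had 100 to 1000 CPM, against 20.7% in control. Mutant barcodes thus formed a high and a low group with few between, and control barcodes a broad spread, as the plot of per-barcode levels shows. The highest single barcodes held 173856 CPM in control and 273033 CPM in mutant.

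The scale decides the Sftpc difference between libraries. In UMIs per barcode with no division by depth, the means were 1032 in control and 1041 in mutant, a log2 difference of 0.01. Medians were 142 and 14 UMIs. The mean of per-barcode CPM, which weights barcodes equally, again gave a higher mutant level (24015 against 53204 CPM). The 10% of barcodes with the most Sftpc held 65.8% of its UMIs in control and 38.8% in mutant.

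Sftpb, whose product is needed to form lamellar bodies, stood at 778 CPM in control mouse barcodes (768 to 787) and 2582 CPM in mutant (2562 to 2602). That was 3.29-fold higher, or 1.72 on the log2 scale. The share of barcodes with a Sftpb UMI was 64.5% in control (61.4 to 67.5) and 59.3% in mutant (56.9 to 61.7). The higher sum thus came with no larger share of barcodes holding any Sftpb UMI. Barcodes with 1000 CPM or more up to 10000 CPM were 23.0% and 37.5%, so the share at that level was larger in mutant. Mean UMIs per barcode were 25.9 and 38.6, a ratio of 1.49.

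Sftpa1, the first collectin, was at 502 CPM in control (494 to 509) and 3011 CPM in mutant (2990 to 3033), 5.91-fold higher or 2.56 on the log2 scale. UMIs were seen in 45% and 50.9% of barcodes. No control barcode reached 10000 CPM of Sftpa1, and 81 of 1660 mutant barcodes did. Mean UMIs per barcode were 16.7 and 45.01, so the direction held without scaling for depth.

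Sftpd, the second collectin, differed most in proportion. Its 363 UMIs in control mouse barcodes gave 11.4 CPM (10.2 to 12.6), and its 13282 UMIs in mutant gave 535 CPM (526 to 544.5), 25.5-fold higher or 4.67 on the log2 scale. It was seen in 12.4% of control barcodes and 50.1% of mutant barcodes. After thinning each barcode to 2000 UMIs, so that all had the same number, the shares were 1.87% (1.09 to 2.97) and 32.1% (29.85 to 34.5). In control 22 of 960 barcodes had at least 100 CPM and none had 1000 CPM, while 269 of 1660 mutant barcodes had 1000 CPM or more. Mean UMIs per barcode were 0.378 and 8.001.

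**Figure D1:**
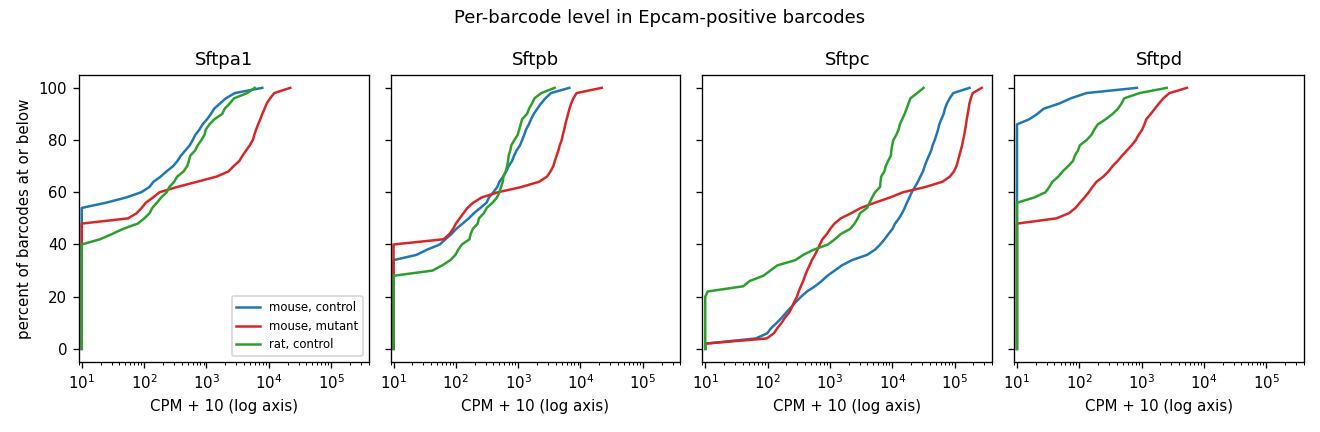
Percent of Epcam-positive barcodes (vertical axis) at or below a given level (horizontal axis, CPM plus 10, log scale) for each gene, with a line for 960 control mouse, 1660 mutant mouse and 224 control rat barcodes. The mutant Sftpc line is flat between 10000 and 100000 CPM and crosses the control line, and the Sftpd lines are the farthest apart between libraries.

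All 4 genes were at least 2-fold higher in mutant mouse barcodes in CPM. Over all 9778 mouse genes with at least 10 CPM in either library, 12.3% were at least 2-fold higher and 11.9% at least 2-fold lower, with a median of -0.18. Counts were made with Cell Ranger 6.0.1 for control and 7.0.1 for mutant, a version that counts intronic reads unless told otherwise, so program version and group cannot be told apart. Set against 300 genes with a similar amount of intron, the log2 differences over their median were 1.69 for Sftpc, 2.32 for Sftpb, 3.11 for Sftpa1 and 5.15 for Sftpd.

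Genes listed for surfactant processing and the lamellar body were mixed. Of 11 measured, 5 were at least 2-fold higher in mutant and 1 lower, with a median of 0.74. Over all genes 12.3% were higher and 11.9% lower, with a median of -0.18. The sodium-phosphate transporter Slc34a2 went from 92.3 to 1100 CPM and the lamellar body membrane protein Lamp3 from 63.4 to 572 CPM. The lipid pump Abca3 was at 128 and 340 CPM, and Napsa, a protease that processes pro-Sftpb, at 381 and 974 CPM. Ctsh, another protease of that step, differed less (1037 and 1745 CPM), and Pgc, also a protease gene, was at 25.9 and 19.6 CPM. The listed gene that was lower was Lmcd1, at 14.8 and 2.18 CPM, which encodes a LIM domain protein and is not a known part of these steps.

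Lipid supply genes leaned to the mutant side. Of 6 measured, 3 were at least 2-fold higher and none lower, with a median of 1.33. The shares over all genes were 12.3% and 11.9%, with a median of -0.18. Scd1, which desaturates fatty acids, was at 5.51 CPM in control and 893 CPM in mutant, and the fatty acid binding gene Fabp5 at 404 and 2135 CPM. Fasn, the fatty acid synthase, was at 102 and 207 CPM.

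Genes listed as transcription factors of surfactant promoters were centred near 0. Of 12 measured, 4 were at least 2-fold higher, 1 was lower and the median was -0.03. Beside them, 12.3% of all genes were higher and 11.9% lower, with a median of -0.18. Nkx2-1, intact in the mouse cells as far as the labels say, was at 501 CPM in control and 320 CPM in mutant, a log2 difference of -0.63. Foxa2 was at 99.99 and 35.9 CPM and was the member at least 2-fold lower. Set against genes with a similar amount of intron, Foxa2 was at -0.72 and Nkx2-1 at -0.10, and Nfib, at 242 and 241 CPM, was at -1.34. Stat3, at 77.4 and 355 CPM, Hopx, Cebpd and Cebpa were those higher. Hopx, at 334 and 1031 CPM, is also 1 of the AT1 markers used for the classes below. Of 3 genes of surfactant uptake and control 2 were measured: the receptor Adgrf5, at 52.1 and 125 CPM, and Csf2ra, at 43.0 and 17.8 CPM. The other collectins Colec12, Colec11 and Mbl2 did not reach 10 CPM.

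Rat and mouse barcodes of the control group came from the same library, and the surfactant genes differed between them in both directions. Sftpc was lower in rat barcodes, at 6227 CPM (6170 to 6285) against 31006 CPM in mouse, a log2 difference of -2.31. Sftpd was higher in rat, at 89.6 CPM (82.8 to 96.7) from 649 UMIs against 11.4 CPM in mouse, a log2 difference of 2.22. Sftpa1 was close (547 and 502 CPM, log2 0.12), and Sftpb was at 539 and 778 CPM (log2 -0.52). So 1 of 4 members was at least 2-fold higher in rat, where 7.6% of 8613 genes were, and 1 of 4 was at least 2-fold lower, where 15.6% were. Mean depth was near equal here (33295 mouse and 32353 rat UMIs), and UMIs per barcode gave the same order: 201.5 rat and 1032 mouse for Sftpc, 2.90 and 0.378 for Sftpd. The rat and mouse gene models differ, and their part in these differences was not tested. The mix of marker classes, defined below, also differed. AT2 markers led in 49.6% of rat and 31.5% of control mouse barcodes, and AT1 markers in 21.0% and 39.7%. The part of this mix was not tested.

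The share of barcodes with Sftpc in each species depended on the level asked for. A Sftpc UMI was found in 77.7% of rat barcodes and 96.8% of control mouse barcodes, but it was also found in 8.66% of rat mesenchymal and 82.5% of control mouse endothelial barcodes, at median depths of 8567 and 4140 UMIs. Above the 99th percentile of those reference barcodes, Sftpc was in 67.0% of rat (60.4 to 73.1) and 63.2% of control mouse barcodes (60.1 to 66.3). Those cuts were 167 CPM for rat and 4637 CPM for control mouse, so the overlapping intervals do not compare the species at 1 level. On the same scale, 21.9% of rat and 35.6% of control mouse barcodes had 10000 to 50000 CPM. The upper end of the range differed too. No rat barcode of 224 reached 50000 CPM of rat Sftpc (0 to 1.63%), where 3 barcodes would be 1.34%, and 18.5% of control mouse barcodes did. For the other genes the share with a UMI was higher in rat: 58.5% and 45% for Sftpa1, 71.0% and 64.5% for Sftpb, and 43.8% and 12.4% for Sftpd. After thinning to 2000 UMIs, Sftpd was found in 12.1% of rat (8.13 to 17.1) and 1.87% of control mouse barcodes. The thinned shares of Sftpa1 (32.7% and 28.0%) and Sftpb (48.4% and 43.5%) had overlapping intervals.

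The genes were next counted together in each barcode. A gene was taken as above the free RNA when its CPM passed the 99th percentile of barcodes of another lineage, endothelial for mouse and mesenchymal for rat. At least 3 genes passed in 198 of 960 control mouse barcodes (20.6%, 18.1 to 23.3), in 616 of 1660 mutant mouse barcodes (37.1%, 34.8 to 39.5) and in 121 of 224 rat barcodes (54.0%, 47.3 to 60.7). The same cut was passed for 3 genes by 0 of 1397 control and 2 of 1907 mutant endothelial barcodes and by 0 of 358 rat mesenchymal barcodes. The cut was set on these same barcodes, so few of them could pass, and these counts are no separate check. All 4 genes passed in 5%, 29.0% and 32.6%.

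At these cuts, which were unlike between the sets as given below, combinations of genes differed in control mouse from the other sets. In control mouse, 293 barcodes had Sftpc alone and 132 had Sftpa1, Sftpb and Sftpc without Sftpd, while 48 had all 4. In mutant mouse, 481 had all 4 genes, 118 lacked only Sftpd, 107 had Sftpc alone and 102 had Sftpd alone. In rat, 73 had all 4 and 37 lacked only Sftpd. No gene passed in 32.5%, 45.5% and 22.8% of control mouse, mutant mouse and rat barcodes. Every one of 251 control barcodes with Sftpa1 above the cut also had Sftpc above it, as did 606 of 613 mutant and 125 of 131 rat barcodes. The reverse was partial in control, where 41.4% of barcodes with Sftpc had Sftpa1, and 79.5% and 83.3% did in mutant mouse and rat.

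The cut depends on the depth of the reference barcodes, and the control result depends on the cut. Control endothelial barcodes had a median of 4140 mouse UMIs and mutant ones 7597, so that 1 free molecule weighs more in control, and the Sftpb cut was 930 CPM there against 454 CPM. The rat cuts were 0 CPM for Sftpa1 and Sftpd, 103.5 CPM for Sftpb and 167 CPM for Sftpc. In control mouse they were 376, 0, 930 and 4637 CPM in that order, and in mutant mouse 417, 148, 454 and 3242 CPM. Shares and combinations above the free RNA are thus not at like cuts between the sets. With the 95th percentile the shares with at least 3 genes were 36.9% in control and 39.5% in mutant mouse. With a cut on UMIs, the 99th percentile of UMIs per barcode over all other lineages, they were 35.7% and 38.5%. Thinning every barcode to 2000 UMIs avoids a cut: at least 3 genes then had a UMI in 24.6% of 910 control mouse barcodes (21.85 to 27.6), 39.0% of 1622 mutant mouse barcodes (36.6 to 41.4) and 29.1% of 223 rat barcodes (23.3 to 35.6). All 4 had one in 0.989%, 25.3% and 6.28%, and in no endothelial or rat mesenchymal barcode. Barcodes with all 4 genes were thus more frequent in mutant than in control mouse by both measures, while the shares with 3 or more genes lay near each other under the other cuts. After thinning, the intervals of control mouse and rat for 3 or more genes overlapped.

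**Figure D2:**
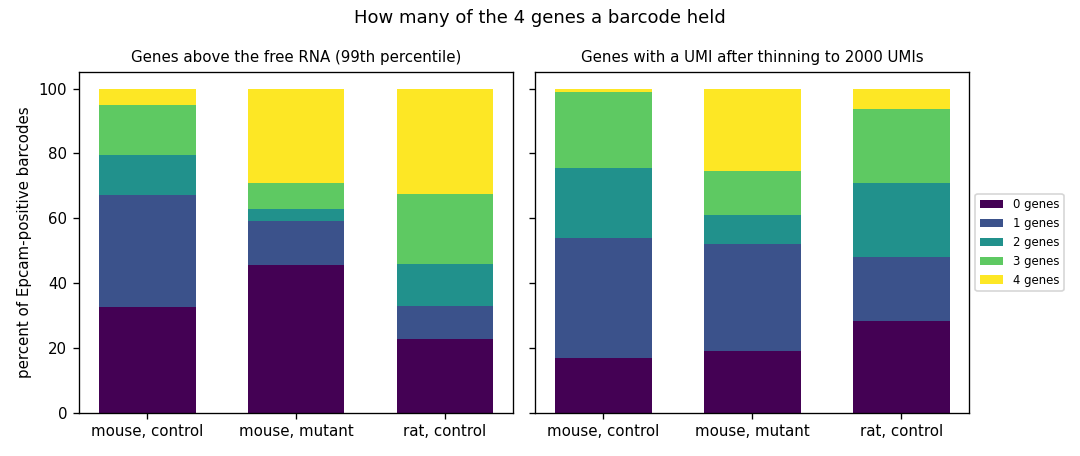
Percent of Epcam-positive barcodes (vertical axis) holding 0, 1, 2, 3 or all 4 genes, for control mouse, mutant mouse and control rat; left, genes above the 99th percentile of barcodes of another lineage, and right, genes with a UMI after thinning to 2000 UMIs. The band for 4 genes is 5% and 0.989% in control mouse and 29.0% and 25.3% in mutant mouse.

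Across single barcodes Sftpa1, Sftpb and Sftpc ranked alike in all 3 sets, and Sftpd stood apart in control mouse. Spearman's rho of Sftpa1 with Sftpb was 0.78 over 960 control mouse, 0.81 over 1660 mutant mouse and 0.77 over 224 rat barcodes. The pairs of Sftpc with Sftpa1 and with Sftpb had rho from 0.73 to 0.80. Sftpd had rho of 0.10 with Sftpc in control mouse, 0.60 in mutant mouse and 0.38 in rat, and of 0.24, 0.67 and 0.52 with Sftpa1. These are descriptions, since barcodes of a set share 1 library, depth differs between them, and 87.6% of control mouse barcodes had no Sftpd UMI.

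The genes most like each member were found by the mean of the 2 mouse rho values among 8577 genes seen in at least 10% of barcodes. Sftpa1 was closest to Sftpb (mean rho 0.79), Lamp3 (0.79) and Slc34a2 (0.78), and Sftpb to Sftpa1, Slc34a2 (0.77) and Cxcl15 (0.76), a chemokine gene of lung epithelium. Sftpc was closest to Dlk1 (0.81), which encodes a membrane protein related to Notch ligands, ahead of Sftpa1 (0.78) and Sftpb (0.76). Sftpd was closest to Cxcl15 (0.50), the proton pump subunit gene Atp6v1c2 (0.49) and Car8 (0.48), and Sftpc came 79th on its list. Krt19, a keratin gene, was least like Sftpa1, Sftpb and Sftpc, with mean rho from -0.61 to -0.55.

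Each Epcam-positive barcode was also put in the class whose markers it held most, with at least 3 detected and the surfactant genes left out of the AT2 list. The classes are ranges of a marker count and not types. AT2 markers led in 302 control mouse, 582 mutant mouse and 111 rat barcodes, and AT1 markers in 381, 927 and 47. A lead of at most 1 marker was found in 75 and 41 of the mouse AT2 class and in 97 and 28 of the mouse AT1 class, and 222 control but 65 mutant mouse barcodes had no class. The control classes were thus less separate.

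All 4 genes were higher in mutant mouse within the AT2 class. Its marker list includes Lamp3 and Slc34a2, themselves higher in mutant, so the class need not hold like barcodes in both libraries. Sftpc was at 54701 CPM in control and 139663 CPM in mutant, and Sftpb at 1378 and 5196 CPM. Sftpa1 was at 980.5 and 6135 CPM, and Sftpd at 15.2 and 978 CPM. Mean Sftpc UMIs per AT2-class barcode were 2142 and 2700, and medians 1044 and 2782. In this class the mutant level of Sftpc was therefore above control on either scale. The rat AT2 class held 8624 CPM of Sftpc, 736 CPM of Sftpb, 769 CPM of Sftpa1 and 110 CPM of Sftpd. Within the class all members but Sftpd were thus lower in rat than in control mouse.

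In the AT1 class Sftpc went the other way. It was at 10801 CPM in control and 6130 CPM in mutant, and the median barcode had 2428 and 516 CPM, or 29 and 5 UMIs. The AT2 class held 65.3% of mouse Sftpc UMIs in control, 90.9% in mutant and 89.7% of the rat Sftpc UMIs. Sftpb in the AT1 class was at 206 and 140 CPM, and Sftpa1 at 86.9 and 124 CPM. Sftpd in that class was higher in mutant, at 84.5 against 7.27 CPM. Barcodes with no class held 28336 CPM of Sftpc in control and 64289 CPM in mutant, the same direction as the AT2 class, and 23.3% of control Sftpc UMIs.

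Airway classes were small, with 31 and 23 secretory and 24 and 63 ciliated mouse barcodes in control and mutant. A lead of at most 1 marker was found in 12 and 12 of the secretory and in 7 and 6 of the ciliated barcodes. Secretory barcodes held Sftpd and Sftpb but little Sftpc. In mutant secretory barcodes Sftpd was at 553 CPM (488 to 625) and in 87.0% of barcodes, and Sftpb at 693 CPM (619 to 773). In control secretory barcodes they were at 22.8 and 88.7 CPM. Sftpc averaged 2.68 and 4.13 UMIs per secretory barcode, beside 2.39 and 2.93 in barcodes of other lineages. Ciliated barcodes had Sftpd at 9.16 CPM in control and 2.004 CPM in mutant.

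**Figure D3:**
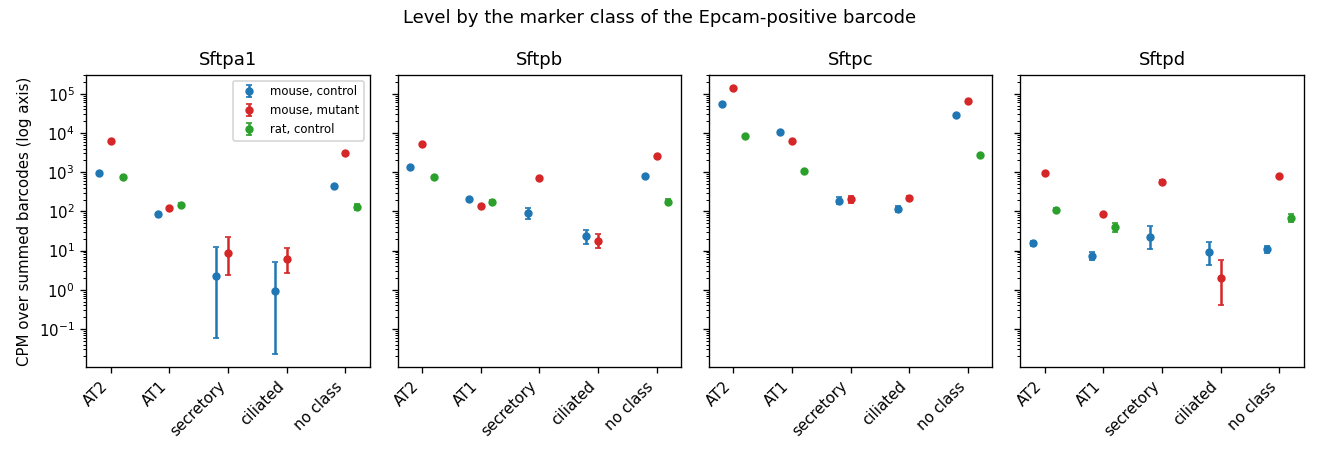
Level over summed barcodes (vertical axis, CPM, log scale) of each gene by marker class (horizontal axis) in control mouse, mutant mouse and control rat, with 95% counting intervals; rat classes under 10 barcodes are not drawn. Sftpc is higher in mutant in the AT2 class (139663 against 54701 CPM) and lower in the AT1 class (6130 against 10801 CPM), and mutant secretory barcodes hold Sftpd at 553 CPM.

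Cell division moved with the libraries. At least 2 markers of dividing cells were seen in 645 control mouse barcodes (67.2%), 65 mutant mouse barcodes (3.92%) and 147 rat barcodes (65.6%). Among barcodes with no such marker, 157 in control and 1272 in mutant, Sftpc had 15352 CPM in control and 72242 CPM in mutant. The same barcodes held 523 and 2674 CPM of Sftpb, 280 and 3131 CPM of Sftpa1, and 8.11 and 559 CPM of Sftpd. Those control barcodes were shallow, with a median of 7038 mouse UMIs. Among the dividing barcodes only the summed Sftpc level was close, at 32221 CPM in control and 36876 CPM in mutant. The median barcode was far lower in mutant, at 19108 CPM in control and 417 CPM in mutant. There Sftpb was at 795 and 1278 CPM, Sftpa1 at 522.5 and 1438 CPM, and Sftpd at 11.3 and 331 CPM. The size of the difference in summed Sftpc thus varied with the dividing markers, whose part in it was not tested.

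Ranked by Sftpc and cut into 4 equal groups, barcodes showed where Sftpd lay. In control mouse Sftpd was at 13.6 CPM in the lowest Sftpc group (10.96 to 16.6), 1.81 and 4.52 CPM in the next groups and 19.0 CPM in the highest (16.6 to 21.6). In mutant mouse the order was 153, 84.1, 508 and 1071 CPM, and in rat 65.9, 41.5, 83.7 and 144 CPM. Each set thus had its least Sftpd in the group just above the lowest, though its interval overlapped that of the lowest group in rat (32.5 to 52.3 and 49.8 to 85.6) and that of the group above it in control mouse (0.829 to 3.44 and 3.20 to 6.21). The secretory gene Scgb3a2 was at 5712 CPM in the lowest control group and 4160 CPM in the lowest mutant group, and the AT1 gene Ager peaked in the next group, at 1141 and 6554 CPM. Sftpa1 went from 2.63 to 1100 CPM and Sftpb from 38.4 to 1458 CPM from the lowest to the highest control group, with no dip. In mutant mouse Sftpb was at 129 CPM in the lowest group (120 to 138) and 98.1 CPM in the next (89.2 to 107.6).

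Surfactant RNA was also found in barcodes of every other lineage, at a low level. This is free RNA in the droplets as far as it occurs in cells that do not make it; doublets below the score limit add to it and were not separated. In mouse endothelial barcodes Sftpc was at 250 CPM in control (241 to 258) and 317 CPM in mutant, which was 0.805% and 0.455% of the Epcam-positive level. A Sftpc UMI was present in 82.5% and 89.0% of endothelial barcodes, so that the presence of a Sftpc UMI does not mark an epithelial barcode in these libraries. After thinning to 2000 UMIs it was still in 48.9% and 47.5% of endothelial barcodes, beside 81.5% and 75.8% of Epcam-positive ones.

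The other members left less. Sftpb was at 15.5 and 24.4 CPM in control and mutant endothelial barcodes, and Sftpa1 at 4.22 and 16.8 CPM. No Sftpd UMI was found in 1397 control endothelial barcodes, where 3 counts would be 0.230 CPM, and 52 UMIs gave 3.27 CPM in mutant. Sftpd differed between the libraries in the free RNA in the same direction as in the Epcam-positive barcodes.

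**Figure D4:**
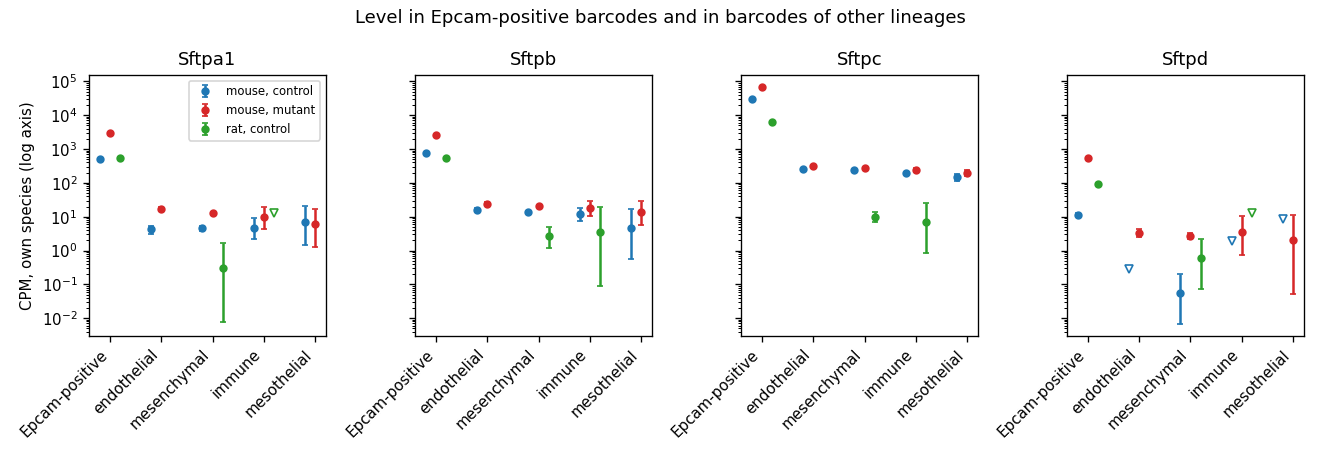
Level of each gene (vertical axis, CPM of own-species UMIs, log scale) in Epcam-positive barcodes and in endothelial, mesenchymal, immune and mesothelial barcodes (horizontal axis) with 95% counting intervals; open triangles are upper limits where no UMI was found, and sets under 20 barcodes are not drawn. Sftpc stays between 146 and 317 CPM in the mouse endothelial, mesenchymal, immune and mesothelial barcodes drawn, against 31006 and 69653 CPM in Epcam-positive mouse barcodes.

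Counted per barcode, free Sftpc was close among the larger sets of mouse and rat barcodes of other lineages. In the control library mouse Sftpc averaged 2.33 UMIs in mouse endothelial (2.25 to 2.41), 2.40 in mouse mesenchymal, 2.53 in mouse immune and 2.35 in mouse mesothelial barcodes. Rat mesenchymal barcodes of that library, whose genome has no mouse Sftpc, held 2.34 (2.18 to 2.50). In the mutant library the values were 2.65 in mouse endothelial, 3.07 in mouse mesenchymal and 2.89 in rat mesenchymal barcodes (2.51 to 3.31), and 4.13 in 24 mouse mesothelial barcodes (3.35 to 5.02). Rat Epcam-positive barcodes held more mouse Sftpc, 7.30 UMIs each (6.95 to 7.67), than rat mesenchymal ones.

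Free Sftpc followed depth only weakly. Control endothelial barcodes were cut into 4 groups by total UMIs, with medians from 1324 to 19098, and held 1.75, 1.91, 2.04 and 3.63 Sftpc UMIs on average. In CPM of all UMIs the same groups had 1304, 638, 333 and 133. Mutant mesenchymal barcodes went from 2.48 to 3.88 UMIs and from 456.5 to 226 CPM of all UMIs. Per UMI, shallow barcodes of other lineages therefore look richer in Sftpc than deep ones, and barcodes with under 500 genes, left out above, held 1537 CPM in control and 2699 CPM in mutant at 2.48 and 4.05 UMIs each.

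**Figure D5:**
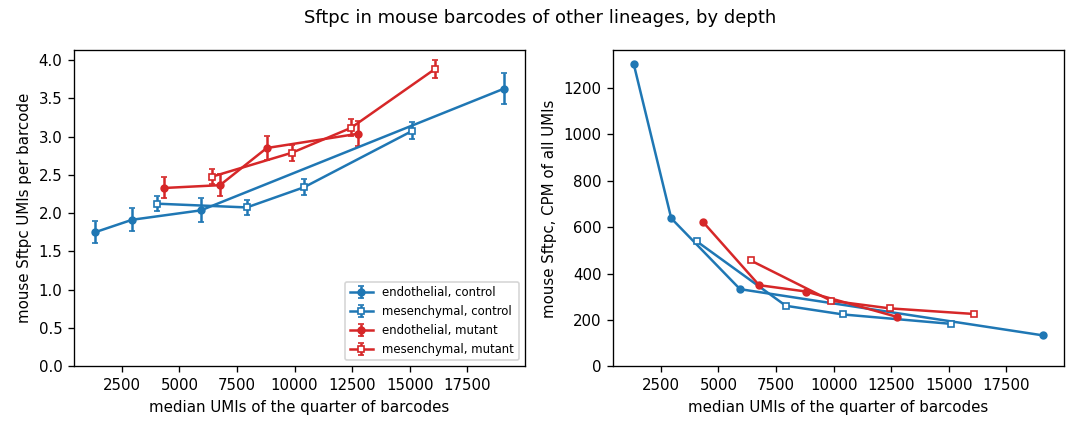
Mouse Sftpc in mouse endothelial and mesenchymal barcodes cut into 4 groups by depth (horizontal axis, median UMIs of the group), as mean UMIs per barcode with 95% counting intervals (left) and as CPM of all UMIs (right). In control endothelial barcodes the mean goes from 1.75 to 3.63 UMIs while the CPM goes from 1304 to 133.

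The mix of the 4 genes in the free RNA differed from that in the Epcam-positive barcodes for Sftpb. In control, Sftpb was 2.41% of the UMIs of the 4 genes in mouse Epcam-positive barcodes, 5.75% in endothelial (5.002 to 6.57) and 5.12% in mesenchymal barcodes (4.68 to 5.58). Mouse Sftpb was 4.80% of mouse surfactant UMIs in rat mesenchymal barcodes (3.50 to 6.42). In mutant the shares were 3.41%, 6.76% and 6.66%. The share of Sftpa1 was 1.55% in control Epcam-positive and 1.57% in endothelial barcodes, and 3.97% and 4.64% in mutant. The source of the Sftpb difference was not tested.

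Rat surfactant RNA gave a further view of the free RNA. Rat Sftpc was at 9.57, 9.28 and 9.47 CPM of all UMIs in mouse endothelial, mouse mesenchymal and rat mesenchymal barcodes of the control library, and at 7.69 in mouse Epcam-positive barcodes. In the mutant library, which had no rat Epcam-positive barcode, 8 UMIs were assigned to rat Sftpc over all barcodes, beside 1986840 to mouse Sftpc, or 4.03 per 1000000 (1.74 to 7.93). Rat Sftpb had 4 UMIs, Sftpa1 1 and Sftpd 0. Reads of the mouse genes were thus rarely assigned to the rat gene of the same symbol. The opposite direction was not tested, since no library held rat Epcam-positive barcodes without mouse ones. Levels of single barcodes still overlapped: 36.8% of control and 54.1% of mutant mouse Epcam-positive barcodes lay at or below the endothelial 99th percentile of Sftpc, and single mesenchymal barcodes reached 21025 and 84172 CPM.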

How the data were processed

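The deposited matrices hold UMI counts per gene and barcode, unscaled whole numbers made by the authors with Cell Ranger 6.0.1 (control) and 7.0.1 (mutant), per the file headers. Per the submitters' processing notes the builds were mm10 and rn6, and Seurat 4.3 was used. The sources used here do not give the intron setting. Mouse positions came from GENCODE vM21. Barcodes needed 500 genes, at most 20% mitochondrial UMIs, and at least 90% mouse UMIs (mouse) or at most 10% (rat). Scrublet scores (Scanpy 1.11.5) of 0.2 or more were removed as doublets, 159 and 359 mouse and 2 rat barcodes; mutant rat barcodes were not scored. UMIs were summed per set and divided by the set's own-species UMIs (CPM); log2 differences used a pseudocount of 10 CPM. Intervals are exact Poisson (CPM) and Clopper-Pearson (shares). Thinning drew 2000 UMIs without replacement, leaving out 50, 38 and 1 Epcam-positive barcodes. The log2 and rank steps were tested on simulated data. The members, markers and lists were chosen with earlier results of these data known. Named genes are the members, the listed surfactant genes and, for each member, the closest genes by rank correlation. Some settings were tried as alternatives.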

Additional observations from a re-analysis of the deposited data

How the results depend on the processing

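No paired analysis was possible because each group had 1 library and the labels give no replicate numbers. No log2 difference of the 4 genes changed direction under the alternatives run for it. Direction did differ in some parts of the mouse barcodes. In the AT1 class the mutant over control values were -0.82 for Sftpc and -0.53 for Sftpb. The ciliated class had -0.67 for Sftpd and -0.23 for Sftpb, and the median barcode held less Sftpc in mutant. The log2 difference of Sftpc, mutant over control, was 1.17; it was 1.27 with at least 2 Epcam UMIs and with every barcode holding an Epcam UMI, 1.10 with markers alone, 1.22 with at most 10% mitochondrial UMIs, 1.16 with stricter species limits, 1.14 with doublets kept, 1.23 without the surfactant genes in the total, 1.33 with the trimmed mean set to 0, 1.15 as the mean of per-barcode CPM, 1.17 with free RNA subtracted and 1.26 on genes of short intron. Alternatives chosen after seeing the data gave 1.35 in the AT2 class and 0.012 for UMIs per barcode without scaling. The rat over mouse difference of -2.31 was -2.15 with every Epcam UMI, -2.26 with species limits of 95% and 5%, -2.35 without the surfactant genes, -2.33 with the trimmed mean, -2.09 as the mean of per-barcode CPM and -2.36 in UMIs per barcode. Over these alternatives Sftpa1 ranged from 1.43 to 2.72, Sftpb from 0.58 to 1.91 and Sftpd from 4.40 to 5.44 in mutant over control, and from 0.05 to 0.54, -0.57 to -0.28 and 2.12 to 2.94 in rat over mouse.

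The control share with at least 3 genes above the free RNA (20.6%) was 14.2% with every Epcam UMI, 27.8% with at least 1000 genes, 36.9% at the 95th percentile and, chosen after seeing the data, 35.7% with a cut on UMIs. The mutant share (37.1%) was 42.5% with at least 2 Epcam UMIs, 34.8% with every Epcam UMI, 32.7% with markers alone, 39.9% at 10% mitochondrial UMIs and 39.5% at the 95th percentile. The rat share (54.0%) was 70.9%, over 117 barcodes, with species limits of 95% and 5%. Thinning to 1000 UMIs gave 12.8% and 35.9% for a UMI of 3 genes, and 17.0% in rat. Endothelial Sftpc (250 and 317 CPM) was 216 and 304 CPM with at least 1000 genes, 238 CPM in control at 10% mitochondrial UMIs, 213 CPM in control with 5 markers and 475 CPM in mutant with doublets kept. The cause of these changes was not tested. Depth limits Sftpd most: 363 UMIs in control mouse and 649 in rat Epcam-positive barcodes.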
